A study of Mus musculus with 12 samples.

Results

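The Myc and Max network is the group of transcription factors that share the dimerisation partner Max. It was defined by gene symbol, and all 10 named genes (Myc, Mycn, Mycl, Max, Mxd1, Mxd3, Mxd4, Mxi1, Mnt and Mga) were found among the 55573 genes of the count table. RNA-sequencing was performed on tumourspheres, which are non-adherent spheres grown from single cells. They came from 3 mouse mammary tumour lines of spindloid histology, A1005, A1129 and A1471. Each line was exposed for 24 h to the vehicle DMSO, to the Met inhibitor Crizotinib, to the FGFR inhibitor PD173074 or to the combination, with 1 µM of each inhibitor per the study's methods. All 12 libraries carry the genotype MMTV-Metmt;Trp53fl/+;Cre, in which the mammary tumour virus promoter drives an activated Met transgene and Cre acts on a single floxed Trp53 allele, and the promoter of Cre and the age of the animals are not given in the sources used here. Each line comes from a separate tumour and gave 1 library per treatment, so the 3 lines are the replicates of each treatment (n = 3).

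Myc, Mycn and Mycl bind DNA at E-box sequences as dimers with Max and activate genes of cell growth, ribosome production and metabolism. The Mxd proteins, Mxi1 and Mnt also pair with Max and occupy the same kind of site, but recruit Sin3 and histone deacetylase corepressors, so they are classed as antagonists of Myc. Mga is a large protein that pairs with Max and joins a polycomb-type repressor complex. In many tissues Myc accompanies proliferation, and several Mxd genes accompany exit from the cell cycle and differentiation.

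Total counts per library ranged from 13031492 to 17750476, and 13836 genes passed the filter on low counts, among them 9 of the 10 members. Libraries of the same line deviated together from their treatment means, so tests were run without the cell line, as in the study's methods, and again with a block for the cell line. The 8 mesenchymal markers summed to 3500 to 5230 CPM (TMM-normalised counts scaled to a common library size) with DMSO and 3600 to 9750 CPM with the combination. Among them Vim was at 2480 to 3100 and 1900 to 3200 CPM, Fn1 at 481 to 1240 and 377 to 5090 CPM, Twist1 fell (log2 fold change -1.09, edgeR adjusted p = 0.00156), and Sparc (1.84, 0.0765) and Zeb2 (0.52, 0.481) were called higher with a block for the cell line only (0.000552 and 0.0133). Of the mesenchymal list, Snai2 and Cdh2 reached at most 32 and 6 counts in any library and were not tested. The 9 epithelial markers summed to 16.4 to 40.6 CPM with DMSO and 7.54 to 46.2 CPM with the combination, most of it Krt8 and Krt18. Krt18 had -0.96 on the log2 scale (adjusted p = 0.5 by edgeR and 0.000225 with the block), whereas Krt8 had 0.86 (0.739 and 0.381). Cldn3 had 0.35 and Cldn4 -0.46, called in neither fit, and Krt5 and Cldn7 had 0 counts in all 12 libraries. The 6 immune markers summed to 4.47 to 31.5 CPM with DMSO and 8.30 to 42.0 CPM with the combination, of which Ptprc and Cd68 held most. Cd68 had 0.68 on the log2 scale (adjusted p = 0.624 by edgeR and 0.00603 with the block), and Ptprc 0.34 (0.961 and 0.881). Between the DMSO libraries Ptprc ran from 0.132 to 13.6 CPM. The 4 endothelial markers summed to at most 0.752 CPM. The part of such cells in the members' changes was not tested.

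With DMSO, Myc was by far the most abundant member. On a scale per length of merged exon (RPKM), Myc stood at 148, 198 and 216 in A1005, A1129 and A1471, above 97.9 to 98.6% of the tested genes of its library. Max followed with 29.1 ± 6.63 RPKM (SD, n = 3), then Mxi1 with 13.6 ± 4.03, Mnt with 10.8 ± 0.0958, Mxd4 with 6.94 ± 0.167, Mga with 6.48 ± 1.92, Mxd3 with 5.81 ± 0.768 and Mxd1 with 2.86 ± 0.203. The ranges over the 3 lines overlapped between Mxi1 and Mnt, between Mxd4 and Mga, and between Mga and Mxd3, so the order within these pairs is not set by the data. Mycl reached at most 0.342 RPKM, and Mycn had 0 counts in all 12 libraries, where the 3 counts that a count of 0 allows correspond to 0.169 to 0.230 CPM. Mycn and Mycl were thus at or near the limit of detection next to Myc. Among the 8 members other than Mycn and Mycl, Mnt and Mxd4 differed least between the lines with DMSO (highest over lowest line 1.02 and 1.05), and Mxi1 and Mga differed most (1.72 and 1.84).

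**Figure D1:**
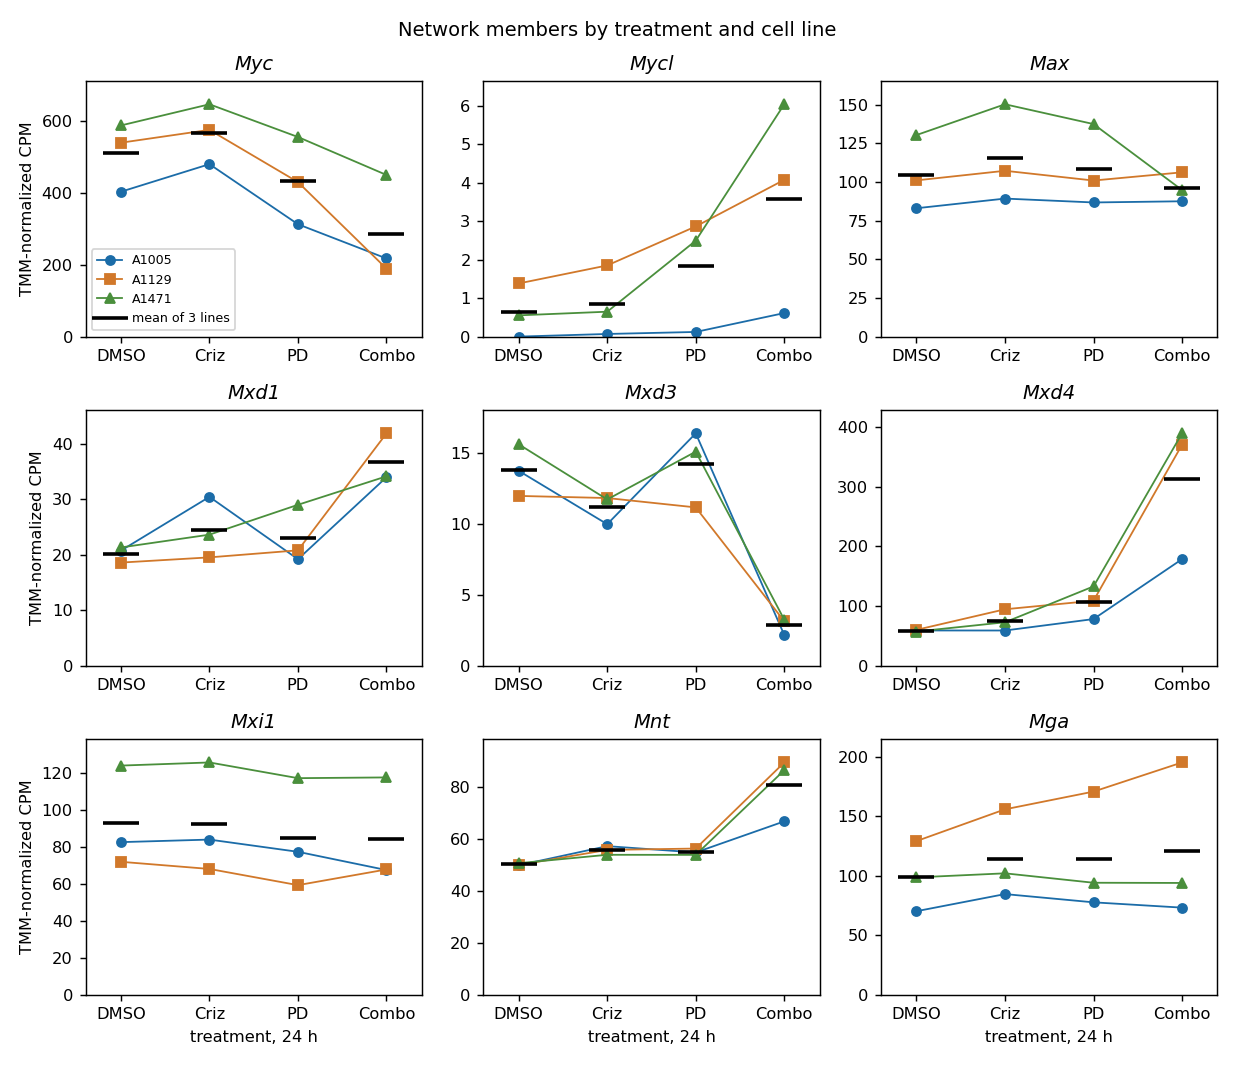
TMM-normalised CPM of the 9 tested members (vertical axis, from 0) for each treatment (horizontal axis), with 1 coloured marker per cell line joined across treatments and a black bar for the mean of the 3 lines. The combination libraries of Mxd4, Mnt and Mxd1 lie above all DMSO libraries and those of Mxd3 lie below all others, whereas Max, Mxi1 and Mga differ more between lines than between treatments.

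In the combination against DMSO, the antagonists Mxd4, Mxd1 and Mnt rose and the antagonist Mxd3 fell. These 4 of the 9 tested members had an adjusted p under 0.05 in the quasi-likelihood test of edgeR, and the same 4 had groups that did not overlap. Of all 13836 tested genes, 14.4% were called (6.1% higher and 8.28% lower), and 29.9% had groups that did not overlap. In the fit that blocks on the cell line, 6 members were called, beside 54.8% of all genes (28.6% higher and 26.2% lower), with Myc lower and Mycl higher as the additions. In bulk libraries, a change in the share of cells that express a gene and a change in its RNA per cell cannot be told apart.

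Mxd4 showed the largest rise of a member that passed the threshold. Its level was 59.1, 60.1 and 57.3 CPM with DMSO in A1005, A1129 and A1471, 59.0, 94.6 and 72.8 CPM with Crizotinib, 78.2, 109 and 133 CPM with PD173074, and 179, 371 and 389.7 CPM with the combination. The DMSO libraries lay close together, and every combination library lay above all 9 others. The mean went from 58.8 ± 1.41 to 313 ± 117 CPM (SD, n = 3). The fitted log2 fold change was 2.41 ± 0.32 (SE), or 5.32-fold, at an edgeR adjusted p of 0.00144. A1005 gave the smallest change, with a log2 change of 1.59 against 2.62 in A1129 and 2.76 in A1471. In RPKM, Mxd4 moved from 6.94 ± 0.167, below Mxi1 and Mnt, to 36.9 ± 13.8, above both in each combination library.

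Mnt, the broadly expressed repressor of the family, changed less. Its spread was small with DMSO (SD 0.443 CPM) and larger with the combination (SD 12.3 CPM). It stood at 49.8, 49.9 and 50.6 CPM with DMSO, 57.2, 55.7 and 53.9 CPM with Crizotinib, 54.8, 56.3 and 53.8 CPM with PD173074, and 66.7, 89.4 and 86.4 CPM with the combination. All 3 combination libraries were above the other 9, and A1005 was the lowest of them. The log2 fold change against DMSO was 0.69 ± 0.13 (SE, 1.61-fold, edgeR adjusted p = 0.00712). Mxd1, the founding member of the Mxd group, stood at 20.8, 18.6 and 21.3 CPM with DMSO, 30.5, 19.6 and 23.7 CPM with Crizotinib, 19.2, 20.8 and 29.0 CPM with PD173074, and 34.0, 41.9 and 34.2 CPM with the combination. Its 3 combination libraries again lay above all others, with the Crizotinib library of A1005 and the PD173074 library of A1471 the nearest. The log2 fold change was 0.86 ± 0.22 (SE, 1.81-fold, edgeR adjusted p = 0.03).

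The upstream sequence of the 3 antagonists that rose together is shown, since the E-box CACGTG is the site that Max dimers bind. Windows of 250 bases before the gene start were read from RefSeq (GRCm38.p6, the build of mm10), which held 9 of the 10 members in 11 windows, and are cut here where the annotated gene begins. Each is on its gene's strand, 5′ to 3′, with an E-box in capitals: Mxd4 at chr5:34187721-34187960 (minus strand), Mnt at chr11:74830674-74830919 (plus strand) and Mxd1 at chr6:86669162-86669409 (minus strand).
Mxd4: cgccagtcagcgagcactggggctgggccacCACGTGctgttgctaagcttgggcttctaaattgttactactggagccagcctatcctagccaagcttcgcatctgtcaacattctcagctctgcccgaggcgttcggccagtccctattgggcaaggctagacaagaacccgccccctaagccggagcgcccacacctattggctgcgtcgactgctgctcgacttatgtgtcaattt
Mnt: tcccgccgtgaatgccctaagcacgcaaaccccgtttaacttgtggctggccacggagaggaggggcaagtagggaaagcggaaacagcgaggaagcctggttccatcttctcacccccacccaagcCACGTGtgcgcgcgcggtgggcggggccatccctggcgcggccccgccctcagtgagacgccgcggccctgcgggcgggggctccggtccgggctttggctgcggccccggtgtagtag
Mxd1: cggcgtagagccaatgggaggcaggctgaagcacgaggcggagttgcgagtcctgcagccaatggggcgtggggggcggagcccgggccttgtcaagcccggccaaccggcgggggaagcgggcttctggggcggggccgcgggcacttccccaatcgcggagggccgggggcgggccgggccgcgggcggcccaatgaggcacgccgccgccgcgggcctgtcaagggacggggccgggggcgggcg
CACGTG, which reads the same on both strands, occurred once in the window of Mxd4, 219 bases before the RefSeq start, and once in that of Mnt, 123 bases before it. It was absent from the window of Mxd1 and from those of the other matched members. Motifs of the E2F, FoxO and ETS transcription factors were also searched, and were absent from the windows of Mxd4, Mnt and Mxd1. Among the other members, Mycn had 2 E2F motifs and Mxi1 had 1 FoxO motif. Myc had no window among those read, so its upstream sequence was not searched. Of the 32851 windows in the RefSeq table, 6.02% held the motif. The window of Mxd1 had 78.4% G and C and that of Mnt 70.0%, against a median of 52.4% over all windows.

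Mxd3 was the member that fell, in the opposite direction to the other called antagonists. Mxd3 differs from its relatives in being expressed in proliferating cells, in S phase. It had 176, 182 and 226 counts with DMSO, 146, 179 and 163 with Crizotinib, 271, 156 and 212 with PD173074, and 39, 50 and 43 with the combination, in the order A1005, A1129, A1471. Every combination library was far under every other library. Scaled, the mean went from 13.8 ± 1.82 to 2.85 ± 0.592 CPM (SD, n = 3). The fitted log2 fold change was -2.27 ± 0.26 (SE), or 4.83-fold lower, at an edgeR adjusted p of 0.00065. The 3′ end of Mxd3 overlaps the gene Prelid1 on the opposite strand by 105 bases. The use of strand in counting is not given in the sources used here, so reads in that stretch cannot be told apart, and Prelid1 itself had -0.48 ± 0.21 on the log2 scale (SE), at an edgeR adjusted p of 0.166. With the block Prelid1 fell (-0.50 ± 0.10, adjusted p = 0.00201), it was lower in 3 of 3 lines, and its groups did not overlap. The part of Prelid1 reads in the change of Mxd3 was not tested.

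These calls lean on all 3 lines in the unpaired fit. Without A1471 the adjusted p of the 4 genes was 0.0702 to 0.168. Without A1129 that of Mxd3 was 0.0312 and the others were 0.0705 to 0.219. Without A1005 that of Mxd1 was 0.0552 and the others were 0.00511 to 0.0154. Under the block, all 4 kept an adjusted p under 0.05 whichever line was left out, the highest being 0.0399 for Mxd1 without A1129. Each of the 4 had the same sign in 3 of 3 lines, as had 34.0% (higher) and 31.9% (lower) of all genes.

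The activator Myc was lower with the combination in each line, within a large difference between lines. Its level was 403, 539 and 587 CPM with DMSO in A1005, A1129 and A1471, 479.5, 575 and 646 CPM with Crizotinib, 312, 429.6 and 555 CPM with PD173074, and 217, 189 and 449 CPM with the combination. The combination library of A1471 stayed above the DMSO library of A1005, so the groups overlapped, and A1129 showed the largest difference, with a log2 change of -1.51 against -0.89 in A1005 and -0.39 in A1471. The log2 fold change was -0.84 ± 0.34 (SE, 1.79-fold lower), which did not pass the threshold (edgeR adjusted p = 0.131). Under the block it was -0.90 ± 0.19 (adjusted p = 0.00243), and over the 14 alternatives the adjusted p ran from 0.00243 to 0.588. With a line left out, the adjusted p under the block was 0.0265 without A1005, 0.0259 without A1129 and 0.004 without A1471. In the unpaired fit it was 0.231, 0.588 and 0.0874 in that order. Even at its lowest, Myc remained above 95.9% of the tested genes of its library per length.

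Mycl, whose product is usually a weaker activator than Myc, was measured from few reads. It had 0, 21 and 8 counts with DMSO in A1005, A1129 and A1471, 1, 28 and 9 with Crizotinib, 2, 40 and 35 with PD173074, and 11, 65 and 80 with the combination. In each line the combination library held the most, but A1005 with the combination stayed under A1129 with DMSO. The log2 fold change of 2.44 ± 1.51 (SE) did not pass the threshold without the block (edgeR adjusted p = 0.328). With the block it was 2.63 ± 0.50 (adjusted p = 0.00144), and the 13 alternatives that could test it gave 0.00144 to 0.769. At 0.151, 1.01 and 1.495 RPKM in the combination libraries, its level per length was a small fraction of that of Myc.

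Max, Mxi1 and Mga did not pass the threshold in any of the 6 comparisons, with or without the block. Max, the shared partner, was at 83.0, 101 and 130.3 CPM with DMSO and at 87.5, 106 and 94.8 CPM with the combination, a log2 fold change of -0.12 ± 0.25 (SE). A1471 alone was lower, by a log2 change of -0.46, and the sign turned to 0.09 without that line. Mxi1, a further Sin3-binding antagonist, was at 82.6, 72.0 and 124 CPM with DMSO and at 67.5, 67.8 and 117.6 CPM with the combination (log2 fold change -0.14 ± 0.35), and A1471 was the highest line under each treatment. Mga was at 70.3, 129 and 98.7 CPM with DMSO and at 73.3, 195 and 94.0 CPM with the combination (0.28 ± 0.43). Only A1129 moved upward by more than 0.1 on the log2 scale for Mga, and without it the fold change was -0.0045.

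**Figure D2:**
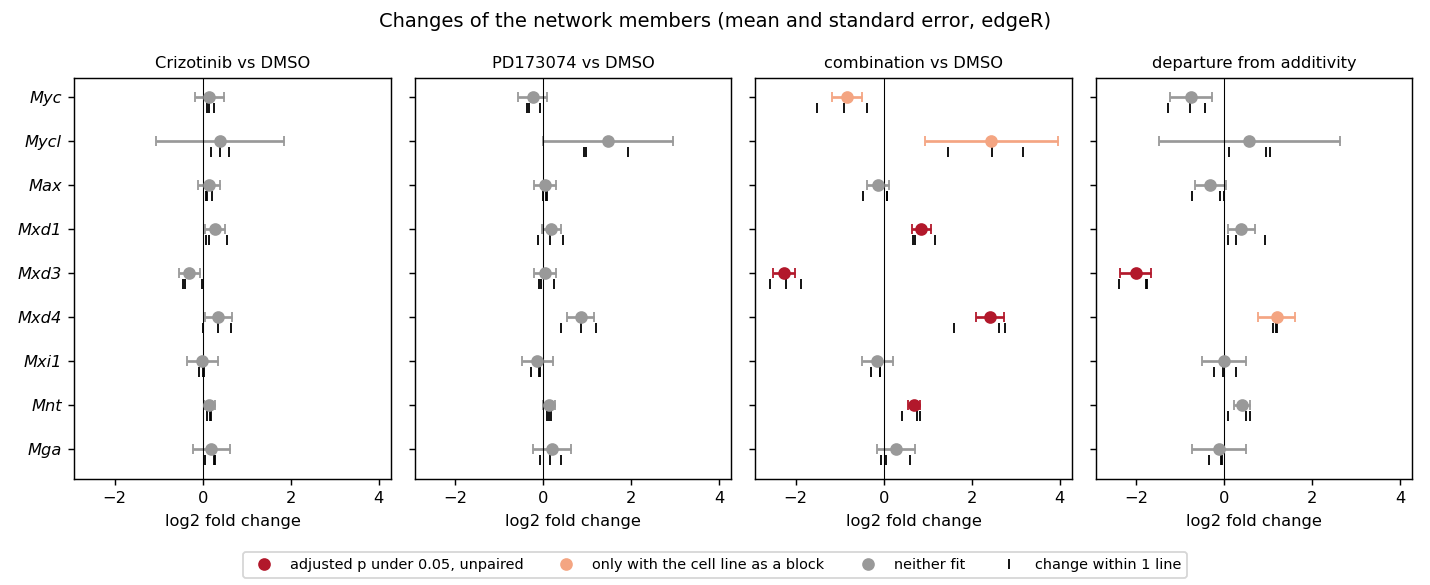
Log2 fold change (horizontal axis) of the 9 tested members in 4 comparisons, with the fitted value and its standard error as a point and bar and the change within each of the 3 lines as ticks underneath. Red points were called in the unpaired edgeR fit (adjusted p under 0.05) and orange points only under the block for the line, and all red and orange points lie in the combination and in its departure from additivity.

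Neither inhibitor alone gave a called member. With Crizotinib, 0 of 9 members passed (edgeR), 0 had an unadjusted p under 0.05, and DESeq2 and limma-voom called 0, beside 0.0% of all genes called by edgeR. Mxd3 and Mnt had groups that did not overlap (1.69% of all genes did), with log2 fold changes of -0.30 ± 0.24 and 0.15 ± 0.13 (SE). With PD173074, 0 of 9 members passed either, 1 had an unadjusted p under 0.05, and DESeq2 and limma-voom called 0, beside 0.0% of all genes. That member was Mxd4, with a log2 fold change of 0.86 ± 0.31 (SE, 1.81-fold, edgeR adjusted p = 1.0). Mxd4 and Mnt did not overlap with DMSO, as for 6.42% of all genes. With the block the adjusted p of Mxd4 with PD173074 was 0.0701, and 2.14% of all genes were called. Myc with PD173074 had a log2 fold change of -0.24 ± 0.34 and was lower in 3 of 3 lines (23.2% of all genes were). With Crizotinib it had 0.15 ± 0.34 and was higher in 3 of 3 lines (17.9% of all genes were).

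Set against each inhibitor, the combination called 3 of 9 members in both cases, Mxd4 and Mnt higher and Mxd3 lower. The background was 13.2% of all genes against Crizotinib (5.4% higher and 7.78% lower) and 4.77% against PD173074 (0.838% higher and 3.93% lower). These 3 comparisons share the combination libraries, so they are not separate evidence. Against Crizotinib, the log2 fold changes were 2.05 ± 0.31 for Mxd4 (edgeR adjusted p = 0.00312), 0.54 ± 0.13 for Mnt (0.0219) and -1.97 ± 0.25 for Mxd3 (0.00131). Against PD173074 they were 1.55 ± 0.31 for Mxd4 (edgeR adjusted p = 0.0196), 0.56 ± 0.13 for Mnt (0.0364) and -2.32 ± 0.26 for Mxd3 (0.000794).

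With the block, 6 members differed from Crizotinib (53.4% of all genes) and 5 from PD173074 (39.8%). Myc was lower than with Crizotinib by a log2 fold change of -0.99 ± 0.34 (SE, adjusted p = 0.0845, with the block 0.000995, over 14 alternatives 0.000995 to 0.455), and its 3 combination libraries lay under the 3 Crizotinib libraries. Groups did not overlap for 5 members in that comparison and for 29.7% of all genes. Against PD173074, Myc had -0.60 ± 0.34 (adjusted p = 0.391, with the block 0.0211, over 14 alternatives 0.0196 to 0.899). Mxd1 had 0.58 ± 0.22 against Crizotinib (adjusted p = 0.115, with the block 0.0248, over 14 alternatives 0.00921 to 0.522) and 0.67 ± 0.22 against PD173074 (0.123, with the block 0.0179, over 14 alternatives 0.0179 to 0.606). Mycl differed from Crizotinib with the block alone among the edgeR fits of all 12 libraries, with a log2 fold change of 2.05 ± 1.49 (adjusted p = 0.422, with the block 0.00318, over 13 alternatives 0.00318 to 0.85).

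The departure from additivity asks whether the combination differed from the sum of both single changes on the log2 scale. Mxd3 was the 1 member of 9 that passed, beside 0.918% of all genes (0.911% lower). Its departure was -2.01 ± 0.35 (SE, edgeR adjusted p = 0.0314), with -2.39, -1.77 and -1.76 in A1005, A1129 and A1471. The single changes of Mxd3 were -0.30 with Crizotinib and 0.05 with PD173074, and the combination value was well under their sum in each line. The call was lost in the unpaired fit without any 1 line (adjusted p = 0.173 without A1005, 0.402 without A1129 and 0.587 without A1471) and held with the block in each case (0.0107 to 0.0489). Mxd4 departed by 1.19 ± 0.43 (SE, adjusted p = 0.381, with the block 0.0203, over 13 alternatives 0.0203 to 1.0), with closely alike values of 1.19, 1.11 and 1.20 in the 3 lines. With the block, 16.2% of all genes were called.

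Activators and antagonists were then compared per library on the RPKM scale, as a description without a test. The summed RPKM of Myc, Mycn and Mycl, which is nearly all Myc, was 3.84, 5.51 and 4.75 times the summed RPKM of Mxd1, Mxd3, Mxd4, Mxi1 and Mnt with DMSO in A1005, A1129 and A1471. The ratio was 4.40, 5.18 and 5.07 with Crizotinib, 2.74, 3.84 and 3.73 with PD173074, and 1.57, 0.879 and 1.90 with the combination. All 3 combination ratios were below the other 9, and in A1129 the antagonist transcripts outnumbered those of the activators per length. Relative to DMSO of the same line, the log2 ratio changed by -1.29, -2.65 and -1.33 with the combination, a mean of -1.76 ± 0.771 (SD, n = 3), by -0.454 ± 0.0898 with PD173074 and by 0.0663 ± 0.143 with Crizotinib. Both sides moved: the activator sum went from 188 ± 35.3 to 106 ± 53.1 RPKM and the antagonist sum from 40.1 ± 4.86 to 73.1 ± 19.5 RPKM. Most of the antagonist rise was Mxd4, with means of 6.94 and 36.9 RPKM. Mnt had 10.8 and 17.5, Mxd1 2.86 and 5.19, Mxi1 13.6 and 12.4, and Mxd3 5.81 and 1.20 RPKM. A transcript ratio says nothing of protein levels, and Myc protein is short-lived.

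The make-up of the antagonist pool shifted as well. With DMSO, Mxi1 and Mnt were the leading antagonist transcripts, with 29.2 to 40.0% and 24.1 to 29.9% of the summed antagonist RPKM. With the combination, Mxd4 held 41.2, 54.5 and 52.2% in A1005, A1129 and A1471, against 18.1, 19.6 and 14.9% with DMSO. Mxd3 went from 15.04, 13.99 and 14.49% to 1.79, 1.65 and 1.56%. With PD173074, Mxd4 already held 21.9, 31.1 and 28.5%. Leaving Mxd4 out of the antagonists, the mean log2 change of the ratio was -1.05.

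**Figure D3:**
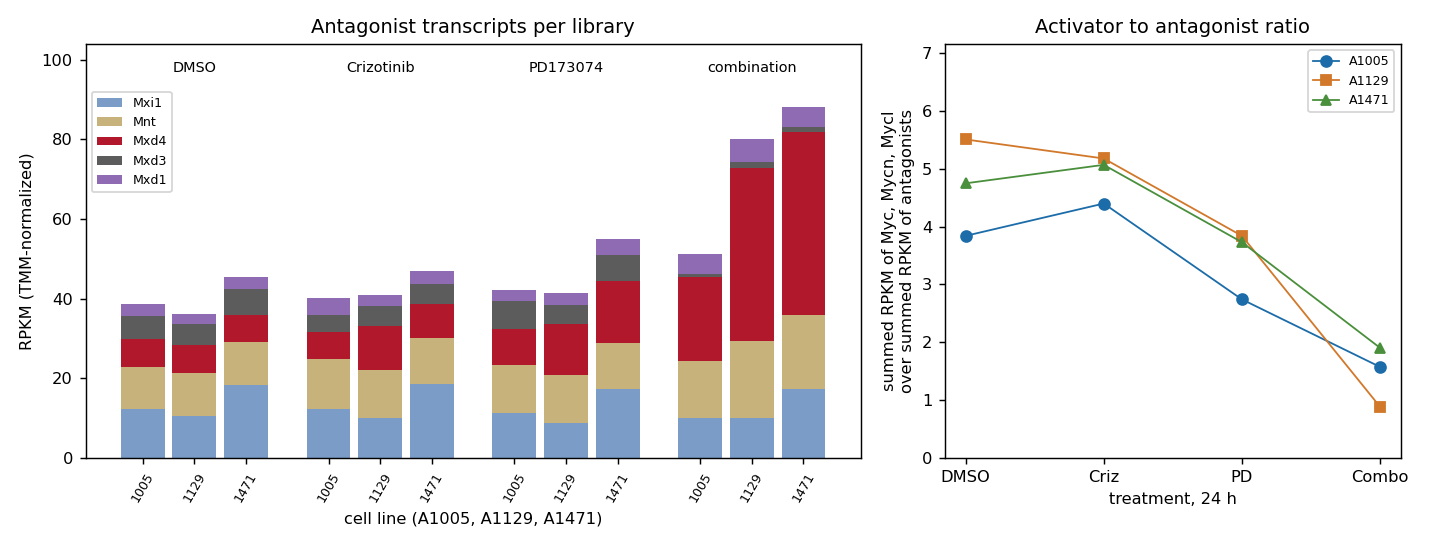
Left, stacked RPKM of the 5 antagonists (vertical axis, from 0) in each of the 12 libraries, grouped by treatment, and right, the ratio of summed activator to summed antagonist RPKM for each cell line across treatments. The red Mxd4 segment fills 41.2 to 54.5% of the combination bars, and the ratio in the combination libraries is 0.879 to 1.90 against 3.84 to 5.51 with DMSO.

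Around the network, 72 genes commonly induced by Myc were followed, most of them for ribosome production, nucleotide and polyamine synthesis and protein folding. The list also holds genes of DNA replication and mitosis, among them Mcm4, Mcm5, Plk1 and Plk4. Whether changes of the list follow Myc or proliferation was not tested. In the combination against DMSO, 38 of the 72 fell and 1 rose (edgeR adjusted p under 0.05), beside 8.28% of all genes that fell and 6.1% that rose. The median log2 fold change of the list was -0.98, against 0.02 over all tested genes, and it was -0.58, -1.32 and -1.03 in A1005, A1129 and A1471. With the block 68 of 72 fell (26.2% of all genes). Without A1005, A1129 or A1471 the unpaired count was 47, 5 and 1, and with the block it was 67, 60 and 59. The share of all genes called in these smaller fits is not given here, so these counts have no background.

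The 5 genes of the list with the smallest p were Mcm5, Rcc1, Shmt2, Odc1 and Hspd1. Odc1, the rate-limiting enzyme of polyamine synthesis and a classical Myc target, went from 889.5, 965 and 1340 CPM with DMSO in A1005, A1129 and A1471 to 109, 121 and 147 CPM with the combination, which is -3.08 ± 0.43 on the log2 scale (SE, edgeR adjusted p = 0.00183). The groups were far apart in every line. Mcm5, a subunit of the replicative helicase, went from 144, 221 and 233 to 36.5, 52.5 and 42.9 CPM (-2.18 ± 0.27, adjusted p = 0.00106), and it was also the 1 gene of the list whose departure from additivity was called (-1.92 ± 0.37, adjusted p = 0.0454). DESeq2 called 13 of the 72 for the departure, and edgeR with the block called 43, all lower, beside 10.7% of all genes. Shmt2, a mitochondrial enzyme of serine and one-carbon metabolism, had -1.99 ± 0.27. Rcc1, the nucleotide exchange factor of Ran, had -1.77 ± 0.24, and Hspd1, a mitochondrial chaperonin, had -1.34 ± 0.19. The adjusted p of these 3 was 0.00151 to 0.00183. The gene that rose was Sord, sorbitol dehydrogenase, from 33.8, 44.6 and 63.1 to 93.9, 163 and 82.9 CPM (1.26 ± 0.32, adjusted p = 0.0267).

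With the single inhibitors, the median log2 fold change of the list was -0.08 in each case, and 58 (Crizotinib) and 59 (PD173074) of the 72 genes had a value below 0, against 6955 and 6913 of the 13836 tested genes. By edgeR 0 of 72 genes were called with either, and the block called 1, Rabepk, lower with PD173074. An unadjusted p under 0.05 was seen for 0 genes with Crizotinib and 1 with PD173074, and DESeq2 and limma-voom called 0. Against the single inhibitors, the combination called 34 of 72 lower relative to Crizotinib (7.78% of all genes) and 22 relative to PD173074 (3.93%). With the block these counts were 65 (26.0% of all genes) and 63 (20.2%). Odc1 with PD173074 had a log2 fold change of -0.85 (adjusted p = 1.0), a value in the same direction that did not pass.

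Of 8 genes that Myc is known to repress, 1 rose with the combination, beside 6.1% of all genes, and 3 rose with the block, beside 28.6%. Gas1, a growth arrest gene, went from 78.9, 79.7 and 84.8 CPM with DMSO to 192, 185 and 164.5 CPM, which is 1.15 ± 0.13 on the log2 scale (SE, edgeR adjusted p = 0.000707), and its groups were well separated. The cell cycle inhibitor genes gave no common direction. Cdkn2b had 1.03 ± 0.41 (adjusted p = 0.13, with the block 0.000118), Cdkn1b 0.55 ± 0.33 (0.311) and Cdkn1a -0.42 ± 0.38 (0.522). Thbs1, an inhibitor of blood vessel growth, had 3.56 ± 1.24 (adjusted p = 0.0867, with the block 0.001). Gadd45a (0.29 ± 0.71), Ndrg1 (0.69 ± 0.63) and Ndrg2 (0.37 ± 0.90) passed in neither fit. With PD173074, edgeR called 0 of the 8, while the block and DESeq2 each called 1, which with the block was Gas1. Gas1 had 0.83 ± 0.13 (SE) with PD173074 against DMSO (with the block adjusted p = 0.00751). In the combination against PD173074 it had 0.32 ± 0.13 (edgeR adjusted p = 0.216, with the block 0.036). The median over the 8 genes was 0.62, but it was -0.04 in A1005 against 1.17 in A1129 and 0.69 in A1471.

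Cofactors and regulators of the network were followed in 5 further lists, to be read beside the 8.28% of all genes that fell and the 6.1% that rose (26.2% and 28.6% with the block). Of 11 coactivators of Myc, 4 fell with the combination, the ATPases Ruvbl2 (log2 fold change -1.52 ± 0.15, SE) and Ruvbl1 (-1.08 ± 0.25), the histone methylation cofactor Wdr5 (-0.83 ± 0.20) and the acetyltransferase Kat2a (-0.77 ± 0.18), with an edgeR adjusted p of 0.00028 to 0.0233. The median of the coactivators was -0.10, and with the block 5 were lower and 2 higher. Of 12 regulators of Myc stability or activity, 4 fell, with a list median of -0.58, and with the block 7 were lower and 1 higher. These were the kinase Aurka (-2.19 ± 0.22), the phosphatase inhibitor Cip2a (-2.05 ± 0.29), the ubiquitin ligase subunit Skp2 (-1.73 ± 0.29) and Bin1 (-1.07 ± 0.27), with an edgeR adjusted p of 0.000329 to 0.029. Cip2a is known to protect Myc protein from degradation, whereas Bin1 is known to inhibit Myc, so the members that fell do not act in 1 direction on it. Fbxw7, the ubiquitin ligase that degrades Myc, had 0.14 ± 0.14.

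Of 9 partners of Mga in its repressor complex, 3 fell, Tfdp1 (-1.13 ± 0.25), E2f6 (-0.74 ± 0.20) and Cbx3 (-0.70 ± 0.11), with an edgeR adjusted p of 0.00298 to 0.039 and a list median of -0.70. With the block 6 were lower and 1 higher. Tfdp1 is also the dimerisation partner of the cell cycle E2F factors, and Cbx3 is also among the 72 Myc-induced genes. By edgeR, 0 of the 7 corepressors were called, 0 had an unadjusted p under 0.05, and DESeq2 and limma-voom called 0. The lowest log2 fold change was -0.32, for Hdac1. With the block 1 corepressor, Hdac1, was lower and 2 were higher, among them Ncor1. In the parallel arm around Mlx, the Max-like partner of Mxd proteins, Mlx had -0.40 ± 0.20 (edgeR adjusted p = 0.21, with the block 0.0283) and Mlxip 0.01 ± 0.24 (0.993), and Mlxipl, with at most 11 counts in the DMSO and combination libraries, was not tested.

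**Figure D4:**
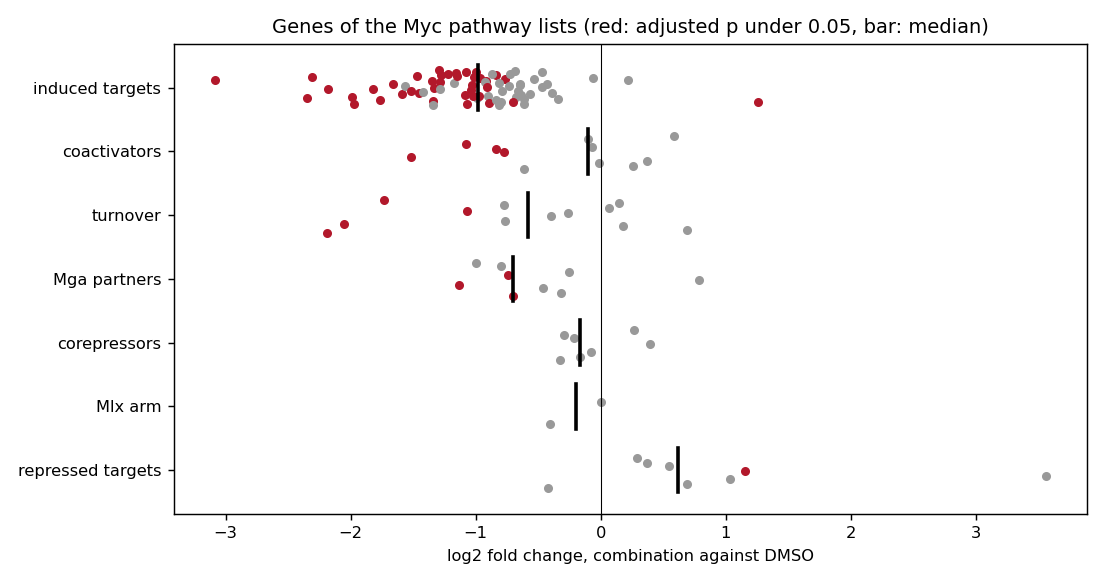
Log2 fold change in the combination against DMSO (horizontal axis) for each tested gene of the 7 lists around the network, with 1 dot per gene, red for an edgeR adjusted p under 0.05, and a bar at the list's median. Most of the 72 induced targets lie left of 0 around a median of -0.98, and the corepressors lie close to 0.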

How the data were processed

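RNA-sequencing counts were analysed for 12 tumoursphere libraries, grouped by treatment and cell line from the sample labels. The authors deposited raw read counts for Ensembl genes, after sequencing on a NextSeq500 and alignment to mm10 with STAR. The submitters' processing notes also name bcl2fastq and HTSeq. The use of strand, the versions and the annotation release are not given in the sources used here. Low counts were removed with filterByExpr (at least 10, total at least 15). Treatments were compared on TMM-normalised counts by the quasi-likelihood F test in edgeR 4.0.16 (R 4.3.3), in 1 unpaired fit of treatment over the 12 libraries, since the study's methods state an unpaired analysis, with Benjamini-Hochberg adjustment over 13836 genes and a threshold of 0.05. Log2 changes within a line used a prior count of 2. RPKM are TMM-normalised CPM per kilobase of merged exon in GENCODE for mm10, where 55480 of the 55573 genes were found.

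The same cell line gave a library under each treatment, so libraries are paired by line. Deviations from the treatment means correlated by at least 0.766 over the 18 same-line pairs and by at most -0.0472 over the 36 pairs of different lines. Deviations within a treatment cancel out over its lines, so correlations between different lines are pulled negative by construction. They are no separate evidence of pairing. The block adds the line to the fit, and its value is printed for the members and list counts whose calls it changes. Within a treatment, chi-square divided by its degrees of freedom was at least 61.2 for each pair of libraries, so no library was a copy of another. No molecular identifiers are described for these reads, and the floor of 3 counts covers counting error only.

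The alternatives were the block, DESeq2 1.42.0, limma-voom (limma 3.58.1), median-ratio size factors, total counts alone, no filter, a minimum of 10 counts per library, only the groups compared, and each line left out, with and without the block. Named genes were the members in all 6 comparisons, every gene of the repressed list and the Mlx arm, called genes of the other cofactor lists, the 5 induced targets with the smallest p and those that rose, and the 5 genes most correlated with Myc and with the most changed antagonist. Other genes named (the markers, Prelid1, Rabepk, Fbxw7, Hdac1, Ncor1 and the genes most like Mxd3) were added after their values were seen, and some genes that these rules name are not reported here. The members and lists were chosen with earlier results of these data known. The edgeR, DESeq2 and limma fits were tested on simulated counts. Tables and plots were made with Python 3.11.15, pandas 2.3.3, numpy 2.4.6 and matplotlib 3.10.9.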

Additional observations from a re-analysis of the deposited data

Results flagged for a closer look

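The response of Mxd3 to either inhibitor differed with the presence of the other. Its departure from additivity was -2.01 on the log2 scale (edgeR's quasi-likelihood test of the interaction, adjusted p = 0.0314), and it was negative in 3 of 3 lines. With Crizotinib alone its log2 fold change against DMSO was -0.30, with PD173074 alone it was 0.05, and with the combination it was -2.27. The difference is given as a measured value, and its cause was not tested.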

How the results depend on the processing

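The number of members called in the combination against DMSO was 4, 2 when only the compared groups were fitted, and 0 to 6 with a line left out. Against Crizotinib it was 3, with 6 under the replicate block, 5 by DESeq2 and 0 to 6 with a line left out. Against PD173074 it was 3, with 5 under the block, 1 with only the compared groups and 0 to 4 with a line left out. For the departure from additivity it was 1, with 2 under the block, 0 without a filter and 0 to 2 with a line left out. Of the induced list 38 fell, 68 under the block, 13 with only the compared groups and 1 to 67 with a line left out. Of the repressed list 1 rose, 3 under the block, 2 by DESeq2 and 1 to 6 with a line left out. Of the cofactor lists 11 genes were called, 26 under the block, 4 with only the compared groups and 2 to 27 with a line left out. Apart from the main fit and the block, the share of all genes called under these settings is not given here. The number of members called with Crizotinib and with PD173074 against DMSO was 0 under each of the edgeR, DESeq2 and limma-voom alternatives, and the change of the activator to antagonist ratio moved by less than its spread between lines.

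Over the 740 settings for single members, 644 kept direction and side of the threshold, 35 lost the call, 28 gained it and 33 turned in sign. The values that turned were all of uncalled differences. Their main values included 0.28 for Mga in the combination against DMSO and -0.26 for Max in the combination against Crizotinib. Mxi1 in the combination against PD173074 went from -0.0060 to 0.00063 under the block, 0.023 by DESeq2, 0.032 with median-ratio factors, 0.042 with total counts and 0.031 with at least 10 counts per library, and its departure went from -0.0014 to 0.013, 0.029, 0.040, 0.042 and 0.033 in that order, with 0.0096 by limma-voom. Mga against Crizotinib went to -0.00046 by limma-voom. With a line left out, the range was -0.22 to 0.092 for Max against DMSO, -0.38 to 0.0033 against Crizotinib and -0.29 to 0.045 against PD173074. It was -0.067 to 0.12 for Mxd3 with PD173074, -0.033 to 0.016 for Mxi1 with Crizotinib, -0.091 to 0.10 for Mxi1 in the combination against PD173074 and -0.11 to 0.13 for its departure. For Mga it was -0.0045 to 0.45 against DMSO, -0.15 to 0.19 against Crizotinib and -0.043 to 0.13 against PD173074. The causes were not tested. With 3 lines per treatment, a member that misses the threshold is not shown to be unchanged, and the depth leaves Mycn undetected and Mycl at 0 to 80 counts per library.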

Other observations

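Genes with the pattern most like a member were ranked by Pearson's r over the 12 libraries, on log2 CPM centred within each line, among the 9611 genes whose mean log2 CPM was 3 or more. The points share 3 lines and 4 treatments, so r is a description. Most like Myc were Pja1 (0.98), Vapb (0.979), Wdr36 (0.978), Pcyt1b (0.977) and Frmd4a (0.976). Among the genes most like Mxd4 were Tnip1 (0.994), Fam214a (0.993), Stk11ip (0.993) and Pnrc1 (0.992). For Mxd3 they were Gins3 (0.987), Tcf19 (0.985), Lig1 (0.985), E2f7 (0.985) and Prim2 (0.984). Among the members, Mxd4 correlated with Mnt by 0.946, with the activator Mycl by 0.915, with Mxd1 by 0.831 and with Mga by 0.341. It correlated with Mxd3 by -0.865, with Myc by -0.836, with Mxi1 by -0.503 and with Max by -0.495.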
